A study of Homo sapiens with 5 samples.

Results

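The genes of the proteasome were taken from 5 RNA-seq libraries of HEK293T cells as every row whose symbol began with PSMA, PSMB, PSMC, PSMD, PSME, PSMF or PSMG followed by a number. Of the 19716 genes with a read in at least 1 library, 52 met this rule. Among them, 48 encode subunits, activators, an inhibitor or assembly chaperones of the proteasome. The other 4 rows were the antisense RNAs PSMD5-AS1, PSMD6-AS2 and PSMG3-AS1, and PSMC3IP, which encodes a recombination factor. Of the 48 genes, 43 had at least 20 reads in every library.

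HEK293T is a human embryonic kidney line that expresses the SV40 large T antigen. In 4 groups the cells were given 5 sgRNAs against the uPA (PLAU) promoter and 1 fusion of dCas9, a nuclease-dead Cas9 that binds DNA through its guide, with blue fluorescent protein (BFP) and an effector. The effector was the catalytic domain of DNMT1, the maintenance methyltransferase, or of DNMT3A or DNMT3B, the de novo methyltransferases, or it was EGFP, which carries no methyltransferase. The libraries, named dCas9-BFP-EGFP and so on in the labels, are called EGFP, DNMT1, DNMT3A and DNMT3B here after the effector. The control received pUC19, a cloning plasmid with no dCas9, no sgRNA and no BFP. All 5 groups were transient transfections with 1 ug of plasmid and X-tremeGENE 9, and RNA was taken 48 h later. The labels state BFP sorting for every group, and how the control was sorted is unclear. Each group was 1 library, so every difference from pUC19 also holds whatever differed between single transfections, and no such difference has a replicate check.

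The 26S proteasome degrades proteins tagged with ubiquitin. Its 20S core is a barrel of outer alpha rings and inner beta rings, and some of the beta subunits carry the proteolytic sites. The 19S cap recognises ubiquitin, removes it, and unfolds and threads the substrate into the core with a ring of ATPases. Dedicated chaperones assemble both parts, and the transcription factor NFE2L1 (NRF1), bound with a small MAF protein at antioxidant response elements, raises the transcription of subunit genes when proteasome activity falls short.

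Promoters are shown for the 4 proteasome genes with the smallest p-values when the fusions were set against pUC19 together, a choice made after their values were seen. The 20S assembly chaperones PSMG1 and PSMG4 were lower in the fusion libraries, and the 19S lid subunits PSMD7 and PSMD11 were higher. Each run is the 250 bases before the annotated start, 5′ to 3′ on the strand of the gene, from RefSeq on GRCh38.p14. Capitals mark a match to the antioxidant response element core TGACNNNGC (N is any base, and neither motif overlaps the other) or to a CCAAT box (CCAAT) on the strand shown.
PSMG1 upstream (chr21:39183452-39183701, minus strand): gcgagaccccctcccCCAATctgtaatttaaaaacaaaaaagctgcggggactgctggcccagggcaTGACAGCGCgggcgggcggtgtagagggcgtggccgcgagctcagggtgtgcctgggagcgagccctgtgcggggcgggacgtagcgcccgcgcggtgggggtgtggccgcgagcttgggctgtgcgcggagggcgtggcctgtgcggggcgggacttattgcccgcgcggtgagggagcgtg
PSMG4 upstream (chr6:3258697-3258946, plus strand): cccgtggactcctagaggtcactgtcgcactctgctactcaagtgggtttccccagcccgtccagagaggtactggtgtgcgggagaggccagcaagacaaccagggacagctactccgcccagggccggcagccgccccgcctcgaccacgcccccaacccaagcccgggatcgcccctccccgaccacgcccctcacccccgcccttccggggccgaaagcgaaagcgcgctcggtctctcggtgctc
PSMD7 upstream (chr16:74296564-74296813, plus strand): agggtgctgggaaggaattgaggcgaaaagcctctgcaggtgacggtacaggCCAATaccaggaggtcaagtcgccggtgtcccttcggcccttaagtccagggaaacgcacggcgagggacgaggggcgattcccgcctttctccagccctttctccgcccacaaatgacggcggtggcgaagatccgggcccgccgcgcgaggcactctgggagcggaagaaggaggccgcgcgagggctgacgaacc
PSMD11 upstream (chr17:32444260-32444509, plus strand): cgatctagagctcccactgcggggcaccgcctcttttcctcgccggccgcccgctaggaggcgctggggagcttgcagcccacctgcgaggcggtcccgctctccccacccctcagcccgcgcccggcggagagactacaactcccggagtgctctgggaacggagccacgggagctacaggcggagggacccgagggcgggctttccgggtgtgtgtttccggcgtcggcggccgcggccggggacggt

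PSMG1 held both motifs, with the response element core from 183 to 175 bases and the CCAAT box from 235 to 231 bases before the start. PSMD7 held a CCAAT box from 198 to 194 bases before the start. No match to any searched motif was found in the windows of PSMG4 and PSMD11. Windows of 250 bases before to 50 bases after a start were found for 42 of the 48 genes, with 51 windows in all. Searched on both strands, the response element core was in 15 of these windows (29.4%), against 13.3% of all 35116 promoter windows of the same length. A CCAAT box was in 20 of 51 (39.2%), against 34.6% of all, and the heat shock element pair GAANNTTC was in 0 of 51, against 6.77% of all. The median GC content was 62% in the proteasome windows and 58.7% in all, so the sets also differ in base composition. A match is a description of letters and not a site of binding.

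Upstream of the start, 14 response element cores were found in 13 genes, and those of PSMG1 and of 6 other genes that the naming rule picked are shown with 6 flanking bases on each side, with the core in capitals, to show how far they vary in the free positions. Each is written on the strand that holds the core.
PSMG1 site (chr21:39183620-39183640, minus strand): agggcaTGACAGCGCgggcgg
PSMD3 site (chr17:39980764-39980784, plus strand): ctttgtTGACTCGGCcatcgg
PSMD12 site (chr17:67366728-67366748, minus strand): aaaaccTGACGCTGCaggctg
PSMD9 site (chr12:121888635-121888655, minus strand): ctgtggTGACCCGGCaggagt
PSMD9 site (chr12:121888682-121888702, plus strand): ttccggTGACCCAGCtccgcc
PSME2 site (chr14:24146771-24146791, minus strand): ggactgTGACCCAGCcagcac
PSME4 site (chr2:53971013-53971033, plus strand): tgctggTGACGCTGCagccgc
PSMB9 site (chr6:32854038-32854058, minus strand): gacaagTGACGAGGCagcccc

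The libraries held, in units of 1000000 reads assigned to genes, from 26.2 (EGFP) to 36.1 (pUC19), at which 3 reads correspond to 0.0830 to 0.114 RPM. The chosen markers of HEK293T-like cells, 8 of 8, were at 1 TPM or more in every library. Their summed level was 1306 TPM in pUC19 and 823 to 990.2 TPM in the fusions. IRS4 (396 TPM in pUC19 and 66.3 to 76.5 TPM in the fusions), NEFM and NEFL were lower in all 4 fusions, whereas VIM (437 TPM and 463 to 599 TPM) and KRT8 were higher in all 4. Of 14 markers of blood, liver, connective tissue and endothelium, 3 reached 1 TPM in every library, their sum was 19.6 to 25.4 TPM, and CD3E and CDH5 had no reads. The part of either list in the results below was not tested. The 3 DNMT genes, whose reads come from the fusions and from the cells' own transcripts, took up to 6.02% of the reads (DNMT3B). The share on proteasome genes was therefore also computed without these 3 genes.

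The first question was how much of the RNA came from the proteasome. Levels are given as TPM, in which the reads of a gene are corrected for its length and all genes of a library sum to the same total, so they can be compared between genes. The 48 genes together took 0.636% of the reads in pUC19 (95% Wilson interval 0.633 to 0.639, counting error only). They took 0.612% with the EGFP fusion (0.609 to 0.615), 0.635% with DNMT1 (0.632 to 0.638), 0.665% with DNMT3A (0.662 to 0.668) and 0.619% with DNMT3B (0.616 to 0.622). The 5 shares thus lay within a narrow band, with DNMT3A highest and EGFP lowest. Without the reads on DNMT genes the shares of the DNMT1, DNMT3A and DNMT3B libraries were 0.658%, 0.687% and 0.658%, so that all of them stood above pUC19.

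Single genes also varied little. For each gene the range of log2(TPM + 0.1) over the 5 libraries was taken. Its median was 0.33 over the 43 measured proteasome genes and 0.67 over the 13730 genes with at least 20 reads in every library. Proteasome genes are abundant, and abundant genes have smaller counting error. Among genes with a mean of at least 20 TPM, the median was 0.33 for 42 proteasome genes and 0.57 for all 6986 genes. The narrowest range was that of PSMB2, a beta ring subunit, at 155 to 161 TPM (0.06 on the log2 scale), and the widest was that of PSMG1 at 0.97. Ranges were not tested.

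Each fusion library was then compared with pUC19 by an exact conditional binomial test, two-sided, on the reads of each gene given the library totals, with Benjamini-Hochberg adjustment over all genes. This test compares a pair of libraries and not conditions, and all 4 comparisons share the pUC19 library. At the study's threshold (adjusted p of at most 0.001 and at least 2-fold), 0 proteasome genes were called in any fusion library. Of all genes tested, 5.77% were called with the EGFP fusion, 5.29% with DNMT1, 9.45% with DNMT3A and 8.89% with DNMT3B. At an unadjusted p under 0.05 the exact test had 38, 34, 40 and 37 proteasome genes in the same order, a count not taken over all genes. The test works on shares of all reads and not on TPM. PSMB2 with DNMT3B, for example, had a TPM ratio of 1.006 at an exact p of 8.8e-05. Most proteasome genes thus differed from pUC19 in read share by more than read sampling, but by less than 2-fold. Abundant genes pass such a cut at small differences, and shifts in the library totals enter it too. Without the share of all genes at this cut, the counts show no trait of proteasome genes.

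A lower threshold at the same adjusted p was therefore also used, at which a gene was called when it was at least 25% higher than pUC19 or at most 80% of it (the 25% threshold). With the EGFP fusion 2 of 47 proteasome genes were higher, where 14.3% of all genes were, and 8 were lower, where 16.0% of all genes were. With DNMT1, 2 of 47 were higher (8.87% of all genes) and 7 lower (20.8% of all genes). With DNMT3A, 8 of 47 were higher (17.7% of all genes) and 5 lower (19.1% of all genes). With DNMT3B, 5 of 48 were higher (17.6% of all genes) and 5 lower (18.4% of all genes). The proteasome shares ran from 4.26% to 17.0% and lay under those of all genes in each comparison and direction, except for lower genes with the EGFP fusion (17.0%). Among genes with a mean of at least 20 TPM, a background chosen after the data were seen, the shares of all genes were 12.5% to 28.2%, above those of proteasome genes of that level in every comparison and direction (4.76% to 19.05%). These differences of shares were not tested.

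**Figure D1:**
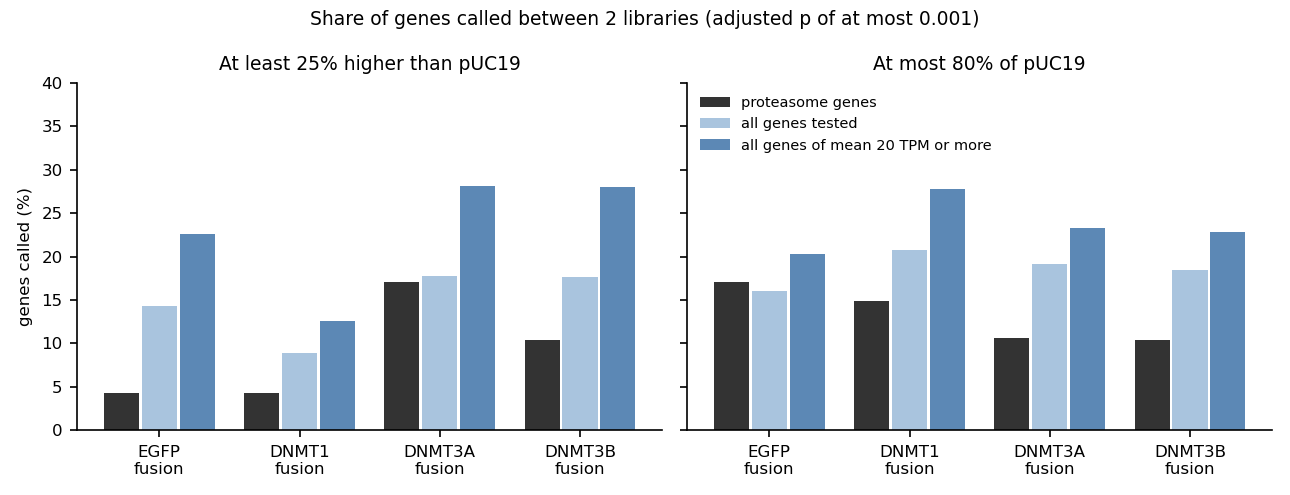
Percent of genes at least 25% higher than pUC19 (left) or at most 80% of it (right) at an adjusted p of at most 0.001 in each fusion library, for proteasome genes (black), all genes tested (light blue) and all genes with a mean of 20 TPM or more (dark blue). The black bars reach 17.0% at most, against 28.2% for the genes with a mean of 20 TPM or more.

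The scaling matters for the DNMT1 fusion. The median log2 ratio to pUC19 over the 43 measured proteasome genes was -0.05 with EGFP, -0.03 with DNMT1, 0.02 with DNMT3A and -0.01 with DNMT3B, and over all genes 0.00, -0.13, -0.01 and -0.01. Scaling by the trimmed mean of M-values (TMM) moved the median of all genes with DNMT1 to -0.01 and that of the proteasome genes to 0.10. At the 25% threshold with DNMT1, the calls among proteasome genes then went from 2 higher and 7 lower to 6 higher and 4 lower. Among all genes they went from 1687 higher and 3961 lower to 2256 higher and 3007 lower. TMM scaling changed the ratios only, and the exact p-values stayed those on the library totals. The share of higher proteasome genes (6 of 47) was then slightly above that of all genes (2256 of 19022). PSMB4, PSMB7, PSMD4 and PSMD7 gained a call, and PSMA5, PSMD6 and PSME3 lost theirs. Of the sums per class given below, TMM scaling moved that of the chaperones of the 19S base with DNMT1 from 0.97 to 1.06 of pUC19, and no other class crossed the level of pUC19. The alpha ring with DNMT1 went from 0.91 to 0.999, and the sum over all 48 genes with DNMT1 from 0.998 to 1.09. With an assumed coefficient of variation of 0.2 between cultures in place of read sampling alone, 0 proteasome genes were called at the 25% threshold in any fusion library. Of all genes, 59 of 19125 (EGFP), 39 of 19022 (DNMT1), 136 of 18970 (DNMT3A) and 117 of 18962 (DNMT3B) were then called at 2-fold. The 25% threshold added no gene to these, so this setting does not decide on changes of under 2-fold.

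**Figure D2:**
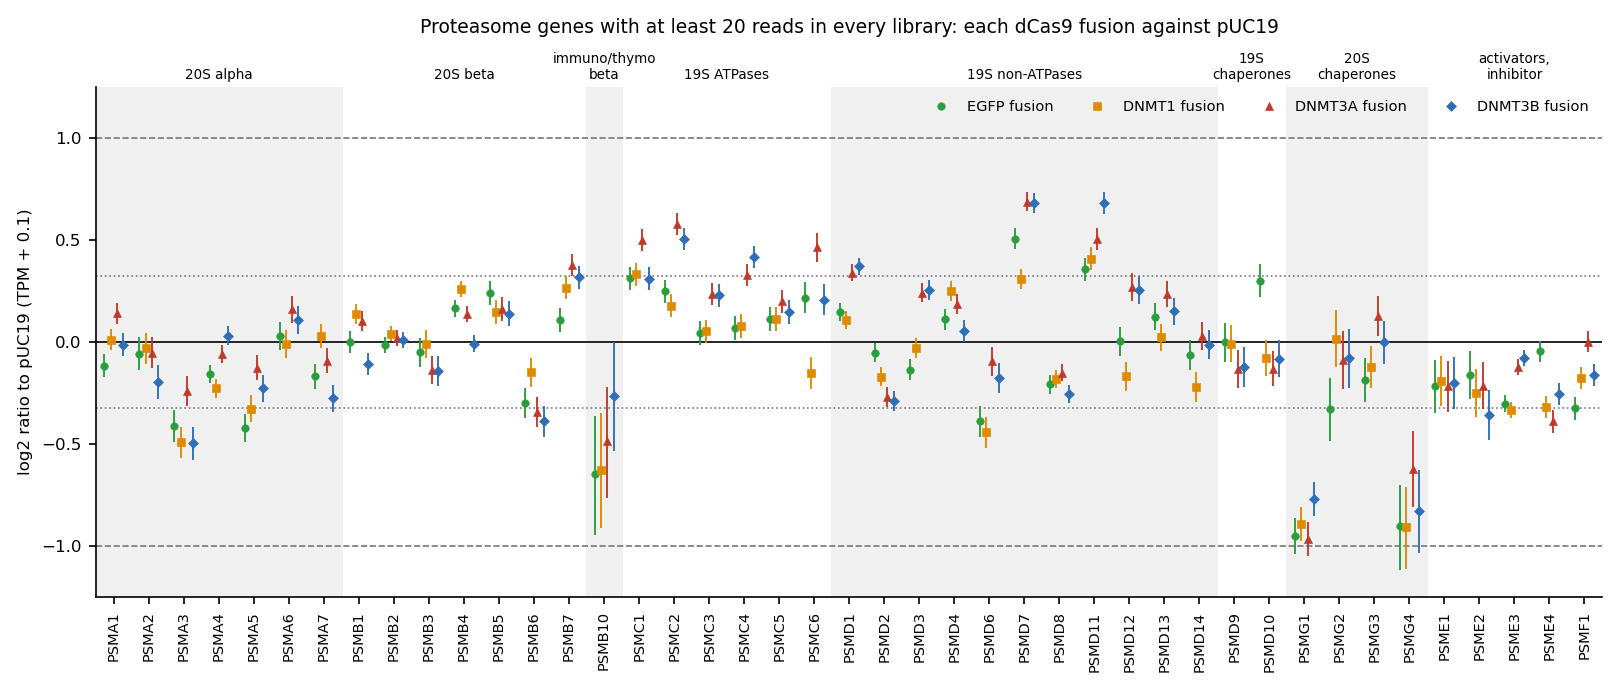
Log2 ratio of TPM + 0.1 to pUC19 for the 43 proteasome genes with at least 20 reads in every library, ordered by role, in the 4 fusion libraries; vertical lines are 95% counting intervals, dotted lines mark the 25% threshold and dashed lines 2-fold. PSMG1 and PSMG4 lie nearest to 2-fold lower (-0.62 to -0.97), and PSMD7 and PSMD11 are the highest points (up to 0.69).

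The alpha ring of the 20S core (PSMA1 to PSMA8), which gates entry into the core, was at 0.90, 0.91, 0.98 and 0.93 times its summed pUC19 level with the EGFP, DNMT1, DNMT3A and DNMT3B fusions. PSMA3, an alpha subunit, was at 235 TPM in pUC19 and at 176, 167, 198 and 166 TPM with EGFP, DNMT1, DNMT3A and DNMT3B. All 4 fusion libraries were below pUC19. The log2 ratios were -0.41, -0.49, -0.24 and -0.50, and the first, second and last passed the 25% threshold with exact adjusted p-values of 3.44e-29, 1.88e-33 and 3.66e-48. PSMA5, another subunit of this ring, was at 80.2 TPM in pUC19 and at 59.8, 63.9, 73.4 and 68.5 TPM in the same order. It was lower at the 25% threshold with EGFP and DNMT1 (log2 ratios -0.42 and -0.33). PSMA4, the most abundant alpha subunit in each library, was at 420.1 to 503 TPM with no call. PSMA1 (253 to 302 TPM), PSMA2 (119 to 137 TPM), PSMA6 (239.7 to 270.1 TPM) and PSMA7 (256 to 316 TPM) were not called in any library either. PSMA8, which replaces PSMA7 in the proteasome of the testis, had 0 reads in 3 libraries, 2 with DNMT3A and 1 with DNMT3B, all below the floor of 3 reads.

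The constitutive beta ring (PSMB1 to PSMB7) was at 1.04, 1.10, 1.06 and 0.99 times its pUC19 sum. PSMB4 had the highest level of all proteasome genes in every library, at 775 TPM in pUC19 and 771 to 927 TPM in the fusions. PSMB1 and PSMA4 followed, and their order changed between libraries. PSMB1 (443 to 526 TPM), PSMB2 and PSMB3 (284 to 313 TPM) were not called. Among the 3 subunits with proteolytic sites, PSMB5, which cleaves after hydrophobic residues, was at 233 TPM in pUC19 and at 276, 259, 261 and 257 TPM with EGFP, DNMT1, DNMT3A and DNMT3B, with no call. PSMB6, which cleaves after acidic residues, was at 279 TPM in pUC19 and at 227, 252, 219.8 and 213 TPM. It was lower than pUC19 in all 4 and passed the 25% threshold with DNMT3A (log2 ratio -0.34) and DNMT3B (-0.39). PSMB7, which cleaves after basic residues, stood on the other side. It was at 319 TPM in pUC19 and at 344, 384, 415 and 398 TPM, and passed the 25% threshold with DNMT3A only (log2 ratio 0.38; DNMT3B 0.32).

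The inducible counterparts of these 3, which form the immunoproteasome in lymphoid and interferon-treated cells, were scarce. With PSMB11 they were at 0.60, 0.68, 0.69 and 0.84 of their pUC19 sum, most of which was PSMB10. PSMB8 had 6 reads in pUC19 and 2, 1, 4 and 4 reads with EGFP, DNMT1, DNMT3A and DNMT3B. PSMB9 had 26 reads in pUC19 and 3, 21, 7 and 16 reads. The log2 ratio of PSMB9 with EGFP was -2.23 with a 95% counting interval of -4.99 to -0.91, and its exact adjusted p of 0.00108 just missed the threshold. PSMB10 was the only one of these measured well, at 19.4 TPM in pUC19 and 12.3, 12.5, 13.8 and 16.1 TPM in the fusions. All fusions were below pUC19, and PSMB10 was lower at the 25% threshold with EGFP, DNMT1 and DNMT3A (log2 ratios -0.65, -0.63 and -0.49). PSMB11, of the thymus proteasome, had 0 reads in pUC19 and DNMT3A and 2, 4 and 1 reads with EGFP, DNMT1 and DNMT3B. In such bulk samples, fewer cells that express a gene and less RNA per cell cannot be told apart.

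The 6 ATPases of the 19S cap (PSMC1 to PSMC6), which form the motor ring, had the highest class ratio with DNMT3A and with DNMT3B, whereas the ratio of the 19S chaperones was higher with EGFP and that of the beta ring with DNMT1. Their summed level was 1.12, 1.09, 1.29 and 1.22 times pUC19 with EGFP, DNMT1, DNMT3A and DNMT3B. The log2 ratio was above 0 for 6, 5, 6 and 6 of the 6 genes, and 0, 1, 4 and 2 of them were called higher at the 25% threshold. None was called lower. PSMC2 was at 117 TPM in pUC19 and at 139, 133, 175 and 167 TPM, with log2 ratios of 0.25, 0.18, 0.58 and 0.50. It was called with DNMT3A (exact adjusted p 2.84e-93) and DNMT3B (8.33e-49). PSMC6 was at 122 TPM in pUC19 and at 142, 110.0, 169 and 141 TPM. It was below pUC19 with DNMT1 alone, and called with DNMT3A only (log2 ratio 0.46). PSMC1 was called with DNMT1 and DNMT3A, at 208 TPM in pUC19 and 262 and 295 TPM in these libraries. PSMC4 was called with DNMT3A and DNMT3B, at 181 TPM in pUC19 and 228 and 242 TPM. PSMC3 (214 to 252 TPM) and PSMC5 (219 to 251 TPM) had no call.

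**Figure D3:**
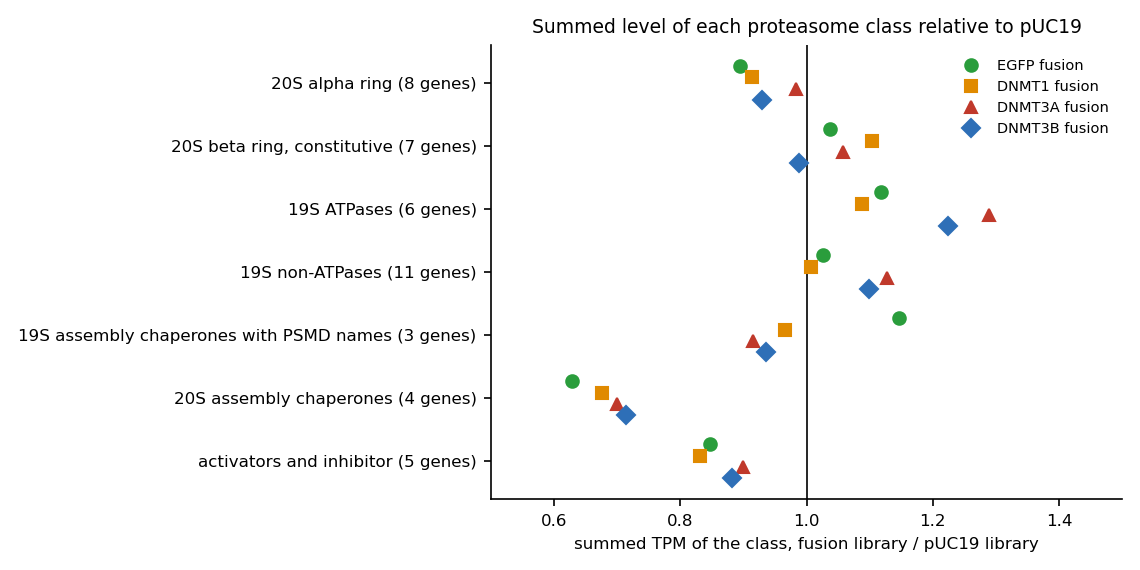
Summed TPM of the genes of a proteasome class in each fusion library divided by that in pUC19 (1 library each). The vertical line marks equal sums and symbols mark the fusions. The immunoproteasome and thymoproteasome beta subunits (0.60 to 0.84) are not drawn. The 19S ATPases lie at 1.09 to 1.29 and the 20S assembly chaperones at 0.63 to 0.71.

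The 11 non-ATPase subunits of the 19S cap were at 1.03, 1.01, 1.13 and 1.10 times their pUC19 sum, and single genes differed in direction. PSMD7, which lies on chromosome 16 at 74330712 to 74340186 (GRCh37, plus strand) and forms a dimer with the deubiquitinase PSMD14, was at 240.1 TPM in pUC19 and at 341, 297, 387 and 385 TPM. Every fusion was above pUC19. Its log2 ratios were 0.51 (95% counting interval 0.46 to 0.56), 0.31 (0.26 to 0.36), 0.69 (0.64 to 0.73) and 0.68 (0.63 to 0.73), and all but DNMT1 passed the 25% threshold. PSMD11, a lid subunit on chromosome 17 at 30771397 to 30810337 (plus strand), was at 79.4 TPM in pUC19 and at 102, 105, 113 and 127 TPM. It was called higher in all 4 fusions, with log2 ratios of 0.36, 0.41, 0.51 and 0.68. PSMD1, the scaffold of the cap's base, was called higher with DNMT3A (228 TPM) and DNMT3B (233 TPM), against 180.1 TPM in pUC19.

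Other cap subunits stayed near pUC19 or below it. PSMD14, the deubiquitinase that removes the ubiquitin chain, was at 138 TPM in pUC19 and at 132, 119, 141 and 137 TPM with EGFP, DNMT1, DNMT3A and DNMT3B, with no call. PSMD4, a ubiquitin receptor, was at 334 TPM in pUC19 and at 361, 397, 380.4 and 347 TPM, also with no call. PSMD6, a lid subunit, was at 149 TPM in pUC19 and at 113, 109, 139 and 131 TPM, and was called lower with EGFP and DNMT1. PSMD2 (155 to 189 TPM), PSMD3 (198 to 259.7 TPM), PSMD8 (357 to 426 TPM), PSMD12 (114 to 155 TPM) and PSMD13 (149 to 176 TPM) had no call against pUC19. The chaperones that assemble the 19S base were at 1.15, 0.97, 0.91 and 0.94 of their pUC19 sum. PSMD9 was at 57.7 TPM in pUC19 and 52.7 to 57.6 TPM in the fusions. PSMD10 was at 100.3 TPM in pUC19 and at 124, 95.04, 91.6 and 94.8 TPM, so that EGFP was the library above the others. PSMD5 had 19 to 27 reads in each library, which covered 5.20% to 20.9% of its transcript, and its level is uncertain for that reason.

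The chaperones of the 20S core (PSMG1 to PSMG4), which pair up to guide the alpha ring, were at 0.63, 0.68, 0.70 and 0.71 of their pUC19 sum, the lowest ratios in each library among the classes of which every gene had at least 20 reads in every library. PSMG1 and PSMG4 had the lowest ratios of the class. PSMG1 (chromosome 21, 40546695 to 40555414, GRCh37, minus strand) was at 222 TPM in pUC19 and at 115, 119.5, 113 and 130.1 TPM with EGFP, DNMT1, DNMT3A and DNMT3B. All fusions were far below pUC19 and close to each other. The log2 ratios were -0.95 (95% counting interval -1.04 to -0.87), -0.89 (-0.98 to -0.81), -0.97 (-1.05 to -0.89) and -0.77 (-0.85 to -0.69), so the intervals of EGFP and DNMT3A reach 2-fold. All 4 passed the 25% threshold, with exact adjusted p-values from 8.90e-132 to 1.64e-98.

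PSMG4 (chromosome 6, 3231637 to 3303607, plus strand) was at 46.9 TPM in pUC19 and at 25.02, 24.97, 30.5 and 26.4 TPM in the same order. It was lower at the 25% threshold in all 4 fusions, with log2 ratios of -0.91, -0.91, -0.62 and -0.83. The log2 ratios of their partners were smaller in size. PSMG2, which forms a dimer with PSMG1, was at 53.3 TPM in pUC19 and 42.4, 53.9, 50.1 and 50.3 TPM, with a call for EGFP only. PSMG3, which forms a dimer with PSMG4, was at 79.6 TPM in pUC19 and 69.9, 73.1, 86.9 and 79.5 TPM, with no call.

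The activators and the inhibitor, which bind the ends of the core in place of the 19S cap, were at 0.85, 0.83, 0.90 and 0.88 of their pUC19 sum. PSME1 and PSME2 form the interferon-inducible activator. PSME2 was at 114 TPM in pUC19 and 102, 96.0, 98.4 and 89.1 TPM, and was called lower with DNMT3B (log2 ratio -0.36). PSME4, a nuclear activator, was at 63.9 TPM in pUC19 and 61.9, 51.2, 48.8 and 53.6 TPM, and was called lower with DNMT3A (-0.39). PSME3, the nuclear homologue of the first pair, was called lower with DNMT1 (221 against 175 TPM), and the regulator PSMF1 with EGFP (115 against 92.0 TPM). PSME1 was at 59.5 to 69.3 TPM with no call, and no gene of this class was called higher.

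Since the fusions share 1 control library, they were also compared with each other. The DNMT3A and DNMT3B libraries were set against the DNMT1 and EGFP libraries by edgeR's quasi-likelihood test with Benjamini-Hochberg adjustment at 0.05. This fit treats different plasmids as replicates, so its error is the spread between plasmids. Of 15332 genes tested, 11.0% were called, and 0 of the 45 proteasome genes tested were. At an unadjusted p under 0.05 it had 2 of the 45, PSMC2 and PSMD12. The share of all genes at this cut was not taken, and is at least the 11.0% called. DESeq2 called 0 of 48, where it called 2146 of all 19379 genes. PSMD12, a lid subunit, was at 155 and 153 TPM with DNMT3A and DNMT3B and at 114 and 129 TPM with DNMT1 and EGFP. Its log2 fold change was 0.29 (SE 0.12) with an edgeR adjusted p of 0.139. PSMC2 had 0.27 (SE 0.12, edgeR adjusted p 0.152).

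PSMD3, a lid subunit, followed on the higher side at 257 and 259.7 TPM against 213 and 198 TPM (log2 fold change 0.27, SE 0.12, edgeR adjusted p 0.184). On the lower side the smallest p belonged to PSMD10 (-0.28, SE 0.14, edgeR adjusted p 0.217), to PSMD2, a base subunit that docks ubiquitin carriers (-0.22, SE 0.11, adjusted p 0.225), and to PSME4 (-0.19, SE 0.12, adjusted p 0.316). PSMD2 was at 157 and 155 TPM with DNMT3A and DNMT3B and at 168 and 183 TPM with DNMT1 and EGFP. Leaving out 1 library changed which genes were called. The lone library of an arm is then assumed to vary like the others, so only sizes are given. The median log2 fold change of proteasome genes was 0.03 in the full fit. It was -0.04 without EGFP, 0.11 without DNMT1, 0.02 without DNMT3A and 0.09 without DNMT3B. Over all genes the median was -0.01 in the full fit and -0.005, 0.004, -0.02 and -0.02 in the same order.

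The last fit set the 4 fusions against pUC19, with its spread from the fusions alone. Of 16001 genes, 0.737% were called by edgeR, and 0 of the 45 proteasome genes tested were. At an unadjusted p under 0.05 it had 4, PSMG1, PSMG4, PSMD7 and PSMD11, a count not taken over all genes. DESeq2 called 1 of 48, PSMG1 lower (DESeq2 adjusted p 0.00728), where it called 977 of all 19716 genes. PSMG1 had a log2 fold change of -0.84 (SE 0.18, edgeR adjusted p 0.0754) and PSMG4 of -0.76 (SE 0.23, adjusted p 0.143). PSMD7 had 0.60 (SE 0.20, adjusted p 0.166) and PSMD11 0.54 (SE 0.20, adjusted p 0.202). These are the same libraries as above and no independent check.

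Partners of the proteasome and genes of the ubiquitin pathway without a PSM symbol were taken as a list, of which 36 of 40 symbols, older names among them, had reads. At 2-fold, 2 were called with EGFP, 0 with DNMT1, 4 with DNMT3A and 4 with DNMT3B, all of them higher. These are 5.56%, 0%, 11.1% and 11.1% of the list, where 5.77%, 5.29%, 9.45% and 8.89% of all genes were called. Under TMM scaling 2 were called with DNMT1, MAFG and ZFAND2A. At the 25% threshold, 11, 8, 13 and 14 were higher (30.6%, 22.2%, 36.1% and 38.9%), where 14.3%, 8.87%, 17.7% and 17.6% of all genes were. In the same order 5, 9, 7 and 5 were lower (13.9%, 25%, 19.4% and 13.9%), where 16.0%, 20.8%, 19.1% and 18.4% of all genes were, so that the shares of lower genes lay near those of all genes. Among all genes with a mean of at least 20 TPM, 22.6%, 12.5%, 28.2% and 28.0% were higher. Of these genes, 20.2%, 27.8%, 23.3% and 22.8% were lower. The list was not cut at this level, and it was chosen with earlier results of these data known. The differences of shares were not tested. The median log2 ratio of the list was 0.07, 0.02, 0.07 and 0.02 in the same order.

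The factors that control proteasome genes were among those higher. NFE2L1 was at 61.9 TPM in pUC19 and at 107, 88.2, 118 and 107 TPM with EGFP, DNMT1, DNMT3A and DNMT3B, and passed the 25% threshold in all 4. NFE2L2, its homologue in the oxidative stress response, was at 52.8 TPM in pUC19 and at 75.0, 56.8, 90.4 and 81.6 TPM, and passed it in all but DNMT1. Of the small MAF proteins with which both pair, MAFG was at 16.5 TPM in pUC19 and at 40.7, 32.7, 44.4 and 49.7 TPM. It passed 2-fold in all but DNMT1 (log2 ratio 0.99), where it also passed under TMM scaling. MAFK was at 8.27 TPM in pUC19 and at 16.5, 13.9, 35.2 and 28.4 TPM, and passed 2-fold with DNMT3A and DNMT3B. MAFF, the other small MAF of the list, was at 4.05 TPM in pUC19 and at 3.40, 5.12, 6.85 and 6.78 TPM. It was below pUC19 with EGFP and passed the 25% threshold with DNMT3A and DNMT3B only. DDI2, the protease that activates NFE2L1, was at 20.03 TPM in pUC19, at 23.3 and 19.95 TPM with EGFP and DNMT1, and at 34.2 and 32.3 TPM with DNMT3A and DNMT3B. NGLY1, the glycanase of the same pathway, was called lower in all 4 fusions, at 33.4 to 39.3 TPM against 52.7 TPM.

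UBB, a gene that encodes ubiquitin, was at 3039.7 TPM in pUC19 and at 4489, 5211, 3962 and 4287 TPM, and passed the 25% threshold in all 4 fusions. NPLOC4, a cofactor of the unfoldase VCP, was at 95.5 TPM in pUC19 and at 173, 153, 205 and 211 TPM, with 2-fold calls for DNMT3A and DNMT3B. ZFAND2A, an arsenite-inducible protein that binds the cap, was at 38.0 TPM in pUC19 and at 88.3, 73.0, 116 and 96.0 TPM, with 2-fold calls for all but DNMT1, where it was called under TMM scaling. PAAF1, a chaperone of the 19S ATPases, was called lower in all 4 fusions, at 29.1 to 34.5 TPM against 48.5 TPM. POMP, the maturation factor of the 20S core, was at 167 TPM in pUC19 and 144 to 159.7 TPM in the fusions, with no call.

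Under the assumed coefficient of variation of 0.2, MAFK with DNMT3A was the sole 2-fold call of the list, where 136 of all 18970 genes were called with DNMT3A. In the edgeR fit of the 4 fusions against pUC19, MAFG was the sole partner gene called, with a log2 fold change of 1.39 (SE 0.25, adjusted p 0.0470). Without the EGFP, DNMT3A or DNMT3B library its edgeR adjusted p was 0.0654, 0.0644 or 0.0547.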

How the data were processed

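RNA-seq was performed on poly(A) RNA of 5 HEK293T libraries, 1 per group, with cDNA of about 240 bp, 12 PCR cycles and an Ion Proton. The authors removed low-quality, adaptor and short reads (under 30 nt), mapped what remained with tmap, allowing 3 mismatches, on RefSeq RNA of hg19 (GRCh37), and kept unique reads. The tmap version and RefSeq release are not given in the sources used here, nor is the strand of the libraries. The count deposited per gene is a whole number of reads without normalization. The TPM deposited by the authors is the count per length, scaled to 1000000 per library, and recomputing it gave the same values within 1.02e-10. The percent coverage deposited is the part of a transcript under reads. RefSeq names 52 pseudogenes of 21 PSM genes, and none had a row in these files.

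Groups came from the sample titles. The members, role classes, partner list, markers and motifs were chosen with earlier results of these data known. Ratios are of TPM + 0.1, which understates changes of low genes. The exact conditional binomial test uses the library totals, and a TPM ratio stood 0.04 (EGFP), -0.02 (DNMT1), 0.03 (DNMT3A) and 0.09 (DNMT3B) on the log2 scale from the ratio of read shares. Adjustment was by Benjamini-Hochberg. edgeR 4.0.16 (R 4.3.3) was run with TMM, filterByExpr and glmQLFTest, and its SE is the fold change over the root of F. Intervals cover counting error only. PCR copies were not marked, so the intervals may be too narrow even for that. Named were the catalytic and tissue-restricted subunits, the 2 genes of widest range per class, any gene called at 2-fold, the 3 of smallest p per direction between fusions, PSMD4 and PSMD14, and of the partners those called at 2-fold plus NFE2L1, NFE2L2, POMP and UBB. The values of 1 partner gene are not reported here. Further genes named (for example PSMC1, PSMC4, PSMD1, PSMD6, PSME3, PSMF1, PSMG2, PSMG3, PSMA4, PSMB1, PSMB2, PSMB4, DDI2, NGLY1 and PAAF1) were chosen after their values were seen.

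The results were recomputed with 1 TPM as pseudocount, with TMM scaling, at least 1 TPM in either library, thinning to the smallest library, edgeR's exact test at an assumed CV of 0.2, DESeq2 1.42.0, size factors by RLE, no filter, a loess offset on GC content and length (span 0.3) and leaving out each fusion. The scripts (Python 3.11.15, numpy 2.4.6, scipy 1.17.1, pandas 2.3.3) were tested on simulated counts. Promoters are RefSeq windows on GRCh38.p14 and positions are GENCODE v44 on GRCh37; they were not mixed. Windows of 6 of the 48 genes were not used here.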

Additional observations from a re-analysis of the deposited data

Results flagged for a closer look

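Among the proteasome genes none passed the test of the DNMT3A and DNMT3B libraries against the DNMT1 and EGFP libraries. Of the 36 partner genes, 5 (13.9%) did in edgeR's quasi-likelihood test, where 11.0% of all genes did, and each is given because the fusions differed in it. MAFK, a small MAF protein, was higher with DNMT3A and DNMT3B by a log2 fold change of 1.02 (SE 0.16, edgeR adjusted p 0.00750). DDI2, the protease that cleaves NFE2L1, was higher by 0.57 (SE 0.14, edgeR adjusted p 0.0326). AKIRIN2, which brings proteasomes into the nucleus, was higher by 0.43 (SE 0.12, edgeR adjusted p 0.0483). IPO9, the import receptor that works with AKIRIN2, had a log2 fold change of -0.46 (SE 0.12, edgeR adjusted p 0.0367), and BAG6, a chaperone for proteins bound for degradation, of -0.44 (SE 0.11, edgeR adjusted p 0.0391). AKIRIN2 was at 162 and 153 TPM against 105 and 120.4 TPM, and IPO9 at 65.3 and 66.9 TPM against 79.6 and 96.3 TPM. The 5 genes were picked by a test on these same libraries, so a gap between the sides adds no support. The share of all genes with such a gap was not taken.

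Leaving out 1 library leaves a side with a single library, and whether these 5 were called depended on the library left out. Only sizes are given for such fits. The log2 fold change was 0.85 to 1.17 for MAFK, 0.52 to 0.62 for DDI2 and 0.38 to 0.48 for AKIRIN2. It was -0.53 to -0.39 for IPO9 and -0.46 to -0.41 for BAG6. Without a filter on low counts MAFK and DDI2 alone of the 36 were called, and with the GC and length offset IPO9 was not (edgeR adjusted p 0.0612). Which other partner genes were called also depended on the library left out. The plasmids of a side are not replicates of each other.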

How the results depend on the processing

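No paired analysis was possible because each group had 1 library and the labels give no replicate numbers. The 0 proteasome genes at 2-fold became 1 with EGFP at a minimum of 1 TPM (PSMB9) and 1 with DNMT3A after thinning (PSMG1), and stayed 0 in the other planned settings. The counts at the 25% threshold became 4 higher with EGFP after thinning, and 6 higher and 4 lower with DNMT1 under TMM scaling. They became 0 in both directions and all 4 fusions at a coefficient of variation of 0.2, where no gene of under 2-fold was called. The DNMT1 median log2 ratio became 0.10 under TMM scaling. Leaving out 1 fusion in the fit between fusions changed which proteasome genes were called. Their median log2 fold change there was -0.04 to 0.11, against 0.03 in the full fit. DESeq2 gave 1 of 48 in the fit against pUC19, and 977 of all 19716 genes. With the GC and length offset the median log2 fold change against pUC19 was 0.19 for proteasome genes and 0.10 for all genes, against 0.01 and 0.03. The share of reads on proteasome genes became 0.658%, 0.687% and 0.658% (DNMT1, DNMT3A, DNMT3B) without the DNMT genes, and 0.878%, 0.865%, 0.876%, 0.929% and 0.889% of TPM (pUC19, EGFP, DNMT1, DNMT3A, DNMT3B). The causes were not tested.

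For single named genes, 758 of the recomputed values kept their direction and their side of the threshold, 33 lost the call, 31 of them at a coefficient of variation of 0.2, and 11 gained it. Another 26 changed sign, none of them called before or after. Against pUC19 the log2 ratios became, after thinning, 0.622 (PSMB8, DNMT3A), 0.665 (PSMB8, DNMT3B), 0.0189 (PSMB8, EGFP), 0.0126 (PSMD14, DNMT3B), 0.0152 (PSMD9, DNMT1) and 0.0204 (PSMD9, EGFP), and under TMM scaling 0.0504 (PSMD10, DNMT1), -0.00805 (PSMD12, EGFP), 0.0985 (PSMD3, DNMT1) and 0.120 (PSMD9, DNMT1). In the fit between fusions PSMG1 became 0.00589 with DESeq2, 0.0102 without a filter and 0.0458 with the GC and length offset. Leaving out 1 fusion there gave -0.0952 to 0.101 for PSMG1, -0.105 to 0.164 for PSMA3, -0.0398 to 0.256 for PSMB7, -0.924 to 1.84 for PSMB9 and -0.249 to 0.0264 for PSMD4. In the fit against pUC19 the GC and length offset gave 0.0561 for PSMA5, 0.327 for PSMD14 and 0.0320 for PSMD9, and leaving out 1 fusion gave -0.0283 to 0.113 for PSMD10 and -0.0697 to 0.0154 for PSMD9. PSMB8, PSMB9, PSMB11, PSMA8 and PSMD5 are limited by depth, at 27 reads or fewer per library. At 1 library per group the spread between transfections is unknown.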

Other observations

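Among the genes that matched the symbol rule without being proteasome genes, PSMD6-AS2 and PSMG3-AS1 had calls at 2-fold. PSMD6-AS2, a long noncoding RNA on chromosome 3 at 63989698 to 63997824 (GRCh37, plus strand), overlaps PSMD6 on the opposite strand (63996226 to 64009686). It had 21 reads in pUC19 and 93, 87, 40 and 68 reads with EGFP, DNMT1, DNMT3A and DNMT3B. Its log2 ratios to pUC19 were 2.43, 2.21, 1.11 and 2.001, and it was called at 2-fold in all but DNMT3A (exact adjusted p 0.00350). PSMD6 itself was lower at the 25% threshold with EGFP and DNMT1. Without the strand of the reads, the transcripts of such a pair cannot be told apart where they overlap.

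PSMG3-AS1 (chromosome 7, 1609709 to 1629262, plus strand), which overlaps the start of PSMG3, had 207 reads in pUC19 and 102, 72, 46 and 67 reads in the same order. It was called lower at 2-fold with DNMT1, DNMT3A and DNMT3B (log2 ratios -1.08, -1.69 and -1.05), and had -0.50 with EGFP. PSMD5-AS1 was at 0.531 to 1.01 TPM with no call. PSMC3IP, a factor of meiotic recombination with no role in the proteasome, was at 36.9 TPM in pUC19 and at 38.2, 27.8, 51.5 and 41.7 TPM, lower at the 25% threshold with DNMT1 and higher with DNMT3A.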
